A study of Homo sapiens with 2 samples.

Results

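The 4 tensin genes (TNS1, TNS2, TNS3 and TNS4) and the 4 genes of the ERBB receptor family (EGFR, ERBB2, ERBB3 and ERBB4) were examined for peaks of H4R3me2a, the asymmetric dimethylation of arginine 3 of histone H4, in HCT116, an established human colorectal carcinoma line. The 8 genes were taken by name, and a peak was counted for a gene when its summit lay in the gene body or within 1 kb of one of the gene's annotated transcription start sites (TSSs). By this rule 35 of the 33353 peaks in the authors' list belonged to them, 25 at tensin genes and 10 at ERBB genes, and no peak was counted for more than 1 of the 8. The study set 1 immunoprecipitation library, made with an H4R3me2a antibody from cross-linked cells, against 1 library of input DNA from the same line, and neither was treated with a drug. With 1 library per group there is no measure of replicate error for any value given here, and no test between conditions was possible. A list of peaks measures no RNA, so the line's label was not checked against marker genes.

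Tensins are adaptor proteins of cell adhesions. They bind the tails of beta integrins through a PTB domain and tyrosine-phosphorylated proteins through an SH2 domain, and the longer family members also bind actin. ERBB receptors are the tyrosine kinases that respond to EGF and its relatives, and in epithelial cells, those of the colon included, they drive growth and migration. Each tensin gene shares its chromosome with an ERBB gene: TNS1 with ERBB4 on chromosome 2, TNS2 with ERBB3 on 12, TNS3 with EGFR on 7 and TNS4 with ERBB2 on 17. H4R3me2a is placed mainly by PRMT1 and is known as a mark of active chromatin.

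Some peaks that stand out in the set or within their gene are shown by their sequence, read from GRCh38 on the strand of the gene, with every CpG in capitals. The widest peak, the most CpG-dense one and those of highest pileup are not among them. The TNS3 peak had the highest fold of all 35, the pair from the 5' part of TNS1 came next, and the peak in the last exon of TNS1 held 11 CpG in the 200 bp around its summit, the most among peaks free of annotated UTR and tied with a peak in exon 18 of TNS2. For TNS4 the peak of highest fold is given, and the ERBB4 peak was the only one of its gene. For peaks of more than 300 bp the 200 bp around the summit are printed instead, and these run past an edge of the peak where the summit lies near it.
TNS3, intron 1, chr7:47577745-47577886, minus strand: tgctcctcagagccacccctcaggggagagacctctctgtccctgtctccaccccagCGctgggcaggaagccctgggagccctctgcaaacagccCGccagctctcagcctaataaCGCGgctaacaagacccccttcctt
TNS1, near the 5' end, chr2:218032403-218032602, minus strand: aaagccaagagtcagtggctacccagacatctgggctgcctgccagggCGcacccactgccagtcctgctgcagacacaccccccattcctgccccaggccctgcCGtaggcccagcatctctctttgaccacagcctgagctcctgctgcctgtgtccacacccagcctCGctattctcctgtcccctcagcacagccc
TNS1, intron 3, chr2:217966340-217966577, minus strand: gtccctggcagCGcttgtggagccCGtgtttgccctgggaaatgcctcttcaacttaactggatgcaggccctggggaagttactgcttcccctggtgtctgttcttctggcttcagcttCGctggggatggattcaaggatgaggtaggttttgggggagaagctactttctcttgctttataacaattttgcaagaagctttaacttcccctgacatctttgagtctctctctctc
TNS1, exon 33, chr2:217804510-217804644, minus strand: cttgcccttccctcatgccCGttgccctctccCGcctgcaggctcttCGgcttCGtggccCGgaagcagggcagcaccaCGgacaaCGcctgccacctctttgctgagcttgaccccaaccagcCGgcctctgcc
TNS4, exon 3, chr17:40488629-40488828, minus strand: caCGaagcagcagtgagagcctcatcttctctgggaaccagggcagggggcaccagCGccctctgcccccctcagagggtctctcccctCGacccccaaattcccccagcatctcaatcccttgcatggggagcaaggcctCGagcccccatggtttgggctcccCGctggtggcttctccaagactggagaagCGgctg
ERBB4, intron 3, chr2:211864157-211864298, minus strand: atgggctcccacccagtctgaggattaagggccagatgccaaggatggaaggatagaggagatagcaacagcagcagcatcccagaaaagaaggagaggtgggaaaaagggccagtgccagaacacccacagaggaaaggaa
The exon or intron named for a stretch is the one that holds the summit. The printed stretches ran from 0 CpG at ERBB4 to 8 at the TNS1 peak with its summit in the last exon. Their GC content ran from 50.4% in intron 3 of TNS1 to 67.4% at that peak.

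Peaks were listed at 7 of the 8 genes, against 47.2% of all 19970 protein-coding genes by the same rule. EGFR was the gene without one. TNS1 had the most, with 10 peaks, followed by ERBB2 with 7, TNS3 with 6, TNS2 with 5, TNS4 with 4, ERBB3 with 2 and ERBB4 with 1. Fewer peaks than TNS1 were counted at 98% of protein-coding genes, and fewer than ERBB2 at 95.5%. The median over the 8 genes was 4.5 peaks, while the median protein-coding gene had 0 and the median one of 100 kb or more had 1.

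**Figure D1:**
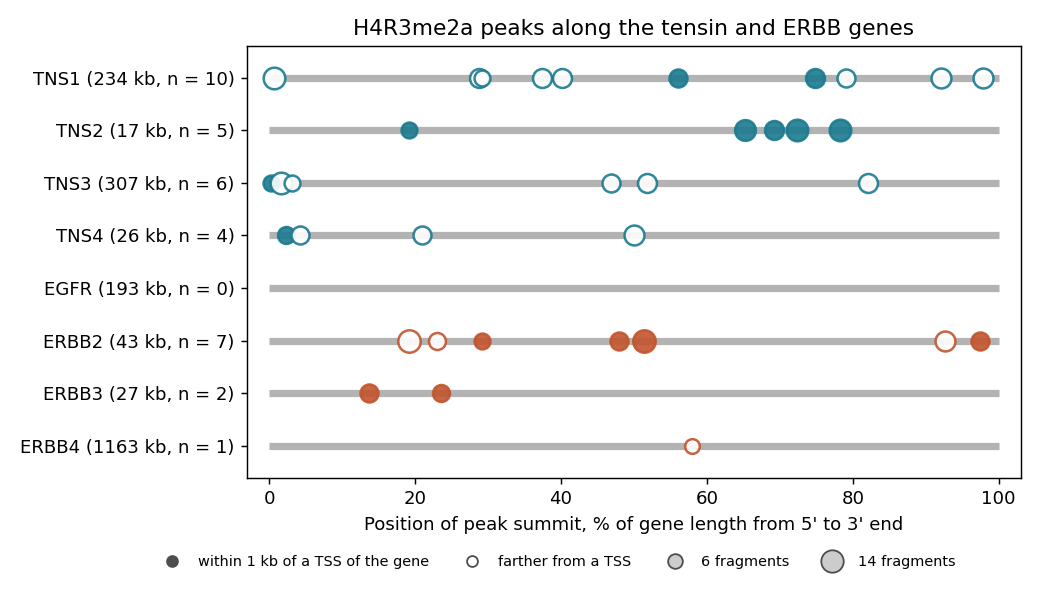
Position of each peak summit along the 8 genes, in percent of gene length from the 5' to the 3' end. The area of a circle grows with the pileup in fragments, filled circles lie within 1 kb of a TSS of the gene and open ones farther away; peaks of TNS1 spread from 0.631% to 97.9% of the gene, 4 of the 5 of TNS2 lie between 65.2% and 78.3% and the other at 19.1%, and EGFR has none.

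The peaks were of ordinary strength for this list. At the summits the pileup, the number of overlapping fragments in the authors' table, ran from 6 at ERBB4 to 14 at ERBB2. The median of the 35 was 10 fragments, as over all peaks, and none of the 35 exceeded 15 fragments, which 4.97% of all peaks did. Counting error alone gives 95% exact Poisson intervals of 2.2 to 13.1 for 6 fragments and 7.65 to 23.5 for 14, so the weakest and the strongest of these pileups were not told apart. The median width was 176 bp (127 to 703 bp) against 185 bp over the whole list. The median of the authors' fold enrichment, the pileup over the local background with 1 added to each, was 4.21 (3.05 to 6.92) against 4.18. Folds of at least 6 were seen at 3 peaks (8.57%), all at TNS1 and TNS3, and at 3.51% of the list.

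**Figure D2:**
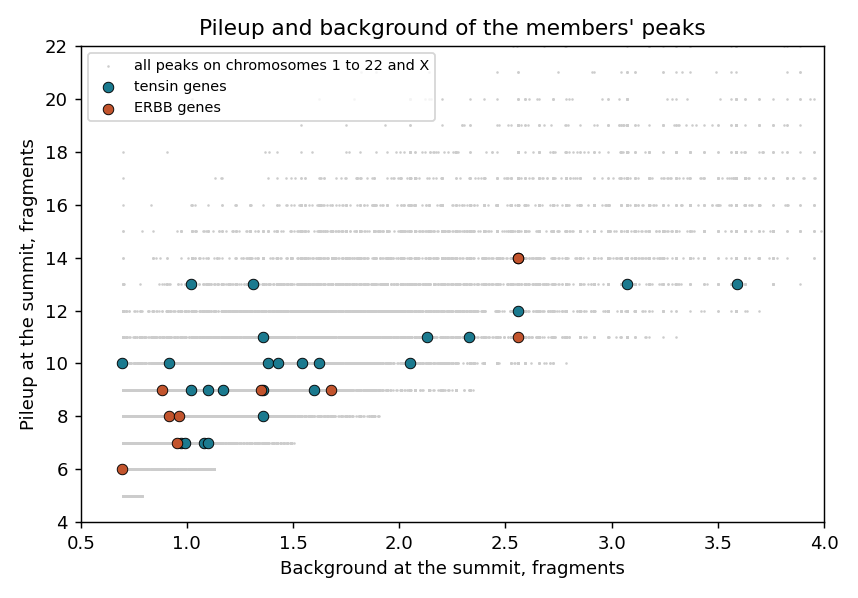
Pileup at the summit against the local background, both in fragments, for the 25 tensin and 10 ERBB peaks (coloured) and for all peaks on chromosomes 1 to 22 and X (grey). Peaks beyond the ends of the axes are not drawn; the coloured peaks lie within the grey ones, between 6 and 14 fragments.

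TNS1, which codes for tensin 1 and spans 234.4 kb on the minus strand of chromosome 2 (chr2:217799588-218033982), carried peaks from end to end. The peak nearest to the 5' end (chr2:218032195-218032593) had its summit 1479 bp inside the gene, a pileup of 13 fragments and a fold of 6.06, and lay in an intron upstream of the canonical transcript. The canonical transcript starts 30987 bp into the gene, and no summit lay within 1 kb of that start or of the 5' end. A pair of peaks followed in canonical intron 3, with summits 796 bp apart. The former of the pair (chr2:217966340-217966577) had a fold of 6.48 from 10 fragments, over the lowest background of any peak in the list, 0.697 fragments, and its neighbour had 7 fragments and a fold of 4.06. Both lay more than 12 kb from any TSS of the gene, at 12492 and 13288 bp.

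Intron 3 of TNS1 held 4 of the 10 peaks, and the other members of the group had pileups of 10 fragments each, with folds of 4.34 and 4.2. The TNS1 peaks that met a TSS did so at internal starts. One in intron 6 (chr2:217902740-217902878, 9 fragments, fold 3.85) lay 826 bp before the start of a protein-coding transcript. Another in intron 18 (chr2:217858631-217858829, 10 fragments, fold 4.62) lay 116 bp before the start of a transcript without a defined coding sequence. The remaining peaks were in coding exons 19, 24 and 33 of 33, with 9, 11 and 11 fragments and folds of 4.24, 3.6 and 3.84. Exon 19 carried the widest peak of the gene, at 415 bp.

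TNS3, an adaptor of 307.4 kb on the minus strand of chromosome 7 (chr7:47275154-47582558), had its peaks in introns throughout. Of the 6, 3 lay in intron 1 within 10 kb of the 5' end, at 863, 4759 and 9643 bp. The second of these (chr7:47577745-47577886) had 13 fragments, a fold of 6.92 and a −log10 q of 5.88, and 99.2% of all peaks had a lower fold. The one nearest to the 5' end (chr7:47581582-47581708) had 7 fragments and a fold of 3.81, and it was the only TNS3 peak near a TSS, 64 bp before that of a protein-coding transcript. It lay in the most CpG-dense sequence of the set, with 23 CpG and 77.5% GC in the 200 bp around the summit. An interval of 134 kb without a summit separated intron 1 from the rest, which lay in introns 6, 10 and 20 with 9, 10 and 10 fragments and folds of 4.62, 5.75 and 4.54.

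TNS2, the shortest of the 8 genes at 17.41 kb (chr12:53046969-53064379, plus strand), had the densest peaks, 28.7 per 100 kb. The exact Poisson interval of this density, which treats peaks as independent, is 9.32 to 67 per 100 kb. A peak 3324 bp from the 5' end (chr12:53050146-53050451, 7 fragments, fold 3.85) lay in intron 1, 107 bp after the start of 3 protein-coding transcripts, and also inside the antisense RNA gene TNS2-AS1. ChIP fragments carry no strand of transcription, so this peak cannot be given to either gene. The other 4 lay close together between 11348 and 13639 bp, in coding exons 15 and 18 and introns 17 and 19, with 12, 13, 10 and 13 fragments respectively. Their folds were 3.65, 3.05, 3.61 and 3.44 in that order, over a background of 2.05 to 3.59 fragments, and no TNS2 peak reached a fold of 4. The nearest annotated TSS of each was that of a retained-intron or nonsense-mediated-decay transcript.

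TNS4, the short tensin that lacks the actin-binding part and is made in colorectal cancers (chr17:40475828-40501623, minus strand, 25.8 kb), was one of the genes with a peak at its 5' end. That peak (chr17:40501001-40501175, 8 fragments, fold 3.81) lay in intron 1, 605 bp after the canonical TSS. The next summit, 488 bp further on, belonged to the widest peak of the set, 703 bp (chr17:40499904-40500606, 9 fragments, fold 4.94). Its summit was 1093 bp from the TSS and thus just outside the window. Coding exons 2 and 3 of 13 held the other peaks, at 20.9% and 50% of the gene, with 9 and 11 fragments and folds of 4.76 and 5.08. No summit lay nearer to the 3' end of TNS4 than that.

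ERBB2, the receptor without a known ligand of its own that is amplified in some breast, stomach and colorectal cancers, spans 42.51 kb on chromosome 17 (chr17:39687914-39730426, plus strand). Its 7 peaks fell into 3 stretches. The first 3 lay between 8142 and 12385 bp from the annotated 5' end, around the canonical start at 12150 bp. The peak inside canonical exon 1 (chr17:39700164-39700302, 7 fragments, fold 4.1) held 18 CpG and 76.5% GC in the 200 bp around its summit. Before it came a wide peak (chr17:39695818-39696254, 437 bp, 14 fragments, fold 4.21) and a narrow one (chr17:39697616-39697745, 130 bp, 8 fragments, fold 4.7).

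Some ERBB2 peaks could as well be counted for a neighbour. The wide peak lay inside PGAP3, a gene for remodelling of lipid anchors on the opposite strand, 741 bp from a PGAP3 TSS, and the narrow one lay 895 bp from a PGAP3 TSS. The narrow peak was also the only one of the 35 that touched repeated sequence by the count used: of 3 32-mers per peak, all were unique in the genome in 34 peaks, while here the one 40 bp to the 3' side of the summit occurred 266 times. Further on, introns 2 and 4 held peaks of 9 and 14 fragments with folds of 3.72 and 4.21. At the 3' end, a peak in exon 26 of 27 (11 fragments, fold 3.37) was followed by one beyond the canonical transcript (chr17:39729353-39729528, 9 fragments, fold 4.25). The latter also lay inside MIEN1, a migration-related gene on the opposite strand, and was 985 bp from an ERBB2 TSS, just inside the window.

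ERBB3, the receptor with a weak kinase that binds neuregulins and signals through its partners, had peaks only in intron 1 (gene at chr12:56076799-56103505, plus strand, 26.71 kb). The summits lay 3650 and 6295 bp from the annotated 5' end. The canonical start is at 3366 bp. The former peak (chr12:56080324-56080634, 311 bp) had 9 fragments and a fold of 5.32, with 19 CpG and 72.5% GC in the 200 bp around its summit. The latter (chr12:56082980-56083146, 167 bp) had 8 fragments, a fold of 4.58 and 2 CpG in the 200 bp around its summit. ERBB3 has 32 annotated TSSs, the most of the 8 genes, which puts much of the gene within 1 kb of one.

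ERBB4, a neuregulin receptor best known from heart and nervous tissue, had 1 peak in 1163 kb (chr2:211375717-212538841, minus strand). The peak (chr2:211864157-211864298, 142 bp) had 6 fragments and a fold of 4.12 over a background of 0.697 fragments. It lay in intron 3, 674681 bp from the 5' end and 96602 bp from the nearest TSS, with 0 CpG in the 200 bp around its summit. The surrounding chromosome was as sparse: from the last summit before the gene to the first after it was 3.33 Mb, and this was the only peak in between.

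EGFR, the receptor for EGF itself (chr7:55019017-55211628, plus strand, 192.6 kb), had no peak at any of its 12 TSSs or in its body. The longest stretch around it without a summit was 442 kb. The sequence at its 5' end was the richest in CpG of the 8, with an observed to expected CpG ratio of 0.926 and 71.9% GC in the 500 bp on either side. ERBB4 was next with 0.837, and it too lacked a promoter peak. Of all protein-coding genes with a ratio of 0.8 or more, 40.6% had a promoter peak. The lowest pileup called anywhere in the list was 5 fragments, and a gene without a listed peak may still carry the mark below what the authors' threshold let through.

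Promoter peaks, those within 1 kb of any annotated TSS of the gene, were found at 6 of the 8 genes, against 31.6% of protein-coding genes. They made up 15 of the 35 peaks. The count rested on TSSs inside the genes. Within 1 kb of the gene's 5' end only TNS3 and TNS4 had a peak, 2 of 8, against 19.2% of protein-coding genes. TNS2 came closest to joining them, with a peak 1003 bp upstream of its 5' end (9 fragments, fold 4.91) that the rule left out. That peak also lay inside TNS2-AS1, so it cannot be given to either gene. By the canonical transcript, 22 of the 35 summits lay in introns, 9 in exons and 4 outside it, at TNS1 and ERBB2.

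The longest of the 8 genes, ERBB4, had 1 peak and the shortest, TNS2, had 5. Per 100 kb, TNS2, ERBB2 and TNS4 had 28.7, 16.5 and 15.5 peaks, ERBB3 had 7.49, TNS1 had 4.27, TNS3 had 1.95 and ERBB4 had 0.086, while all protein-coding genes together had 2.07. That density depended on gene length: protein-coding genes of 10 to 50 kb, the range of TNS2, ERBB2, TNS4 and ERBB3, had 5.96. Those of 100 kb or more had 0.758. The exact intervals of TNS2, ERBB2, TNS4 and ERBB3 overlap (0.907 to 27.1 at ERBB3), so their order is not settled by these counts. The genes of 100 kb or more (TNS1, TNS3, EGFR and ERBB4) had a peak in 3 of 4 cases, against 52.1% of the 3661 protein-coding genes of that length. Taken by family, tensins had 4.27 peaks per 100 kb and ERBB genes 0.702, but without ERBB4 the latter rose to 3.44. The ranges of the families overlapped, from 1.95 to 28.7 and from 0 to 16.5.

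Base composition moved with these numbers at the extremes. The gene bodies ran from 34.7% GC at ERBB4 and 44.6% at EGFR to 60.4% at TNS2, and 51.2% of TNS2 lay in stretches of 60% GC or more, against 2.48% of the genome. Between the extremes it did not: TNS1, TNS4 and ERBB2 had 52.8%, 52.9% and 52% GC, with 4.27, 15.5 and 16.5 peaks per 100 kb. When each 400-bp stretch of a gene was given the peak rate that sequence of its GC content had over the whole genome, the 8 genes together came to 33.7 peaks, against 35 listed. The genes of under 100 kb had more than that rate gave: 5 against 2.54 at TNS2, 4 against 1.35 at TNS4, 7 against 2.53 at ERBB2 and 2 against 0.876 at ERBB3. Those of 100 kb or more had fewer, with 10 against 13.3 at TNS1, 6 against 8.71 at TNS3, 0 against 2.95 at EGFR and 1 against 1.49 at ERBB4. Protein-coding genes in general divided the same way, with 1.69 times the GC-based number under 100 kb and 0.844 times above, where the members had 2.47 and 0.643 times. The GC-based number covers gene bodies only, while the counts also take summits outside them within 1 kb of a TSS. All 35 member summits lay inside the gene bodies, so the general ratios can be raised relative to those of the members. The part of gene density, start sites or DNA copy number in this was not tested.

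**Figure D3:**
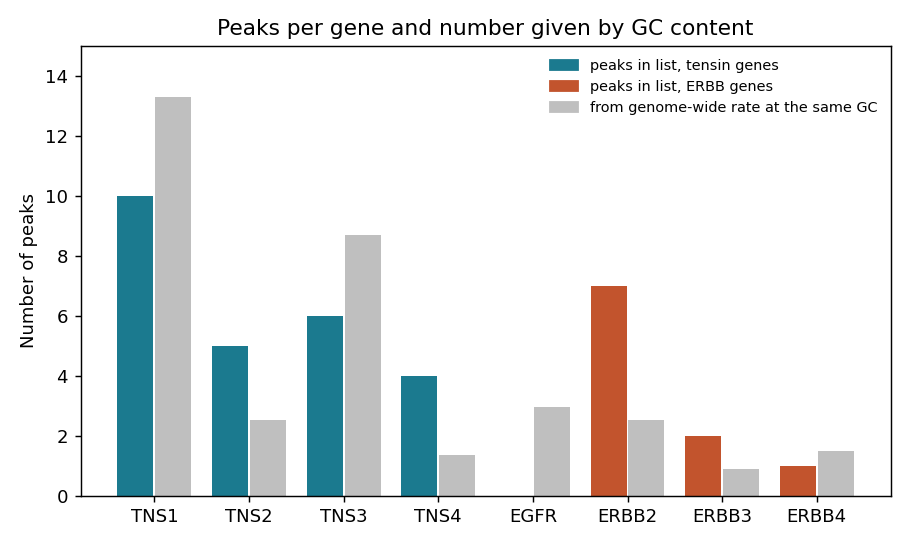
Number of listed peaks (coloured bars) and number given by the genome-wide peak rate at the same GC content (grey bars) for each gene, with no error bars because there is 1 library. The 4 short genes TNS2, TNS4, ERBB2 and ERBB3 exceed the grey bar, and TNS1, TNS3, EGFR and ERBB4 fall below it.

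In the 200 bp around the 35 summits the median GC content was 61.5% (46.5 to 77.5%) and the median number of CpG was 4 (0 to 23), against 61% and 5 over the whole list. The GC box, spelled GGGCGG and sought on both strands, was present at 4 of the 35 summits (11.4%), 1 each at TNS1, TNS3, TNS4 and ERBB3, against 18.4% of all summits. The AP-1 motif TGANTCA was present at 2 (5.71%), in TNS1 and TNS4, against 3.1%. A match of letters is not a binding site.

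The neighbourhoods of the genes differed as much as the genes. In the 200 kb on each side, 36 summits lay around TNS2, 29 around ERBB3, 28 around ERBB2 and 21 around TNS4. Only 4 lay around TNS3, 4 around EGFR, 1 around TNS1 and 0 around ERBB4. TNS1 thus combined 10 peaks of its own with a nearly empty surround, and its flanks had 1 summit where their GC content would give 5.82. The flanks of TNS2 had 36 where it would give 12.6, those of ERBB2 28 against 14.3, those of ERBB3 29 against 10.3 and those of TNS4 21 against 12.6. EGFR had 4 against 5.71, all on its 3' side, and TNS3 had 4 against 4.82, all on its 5' side.

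**Figure D4:**
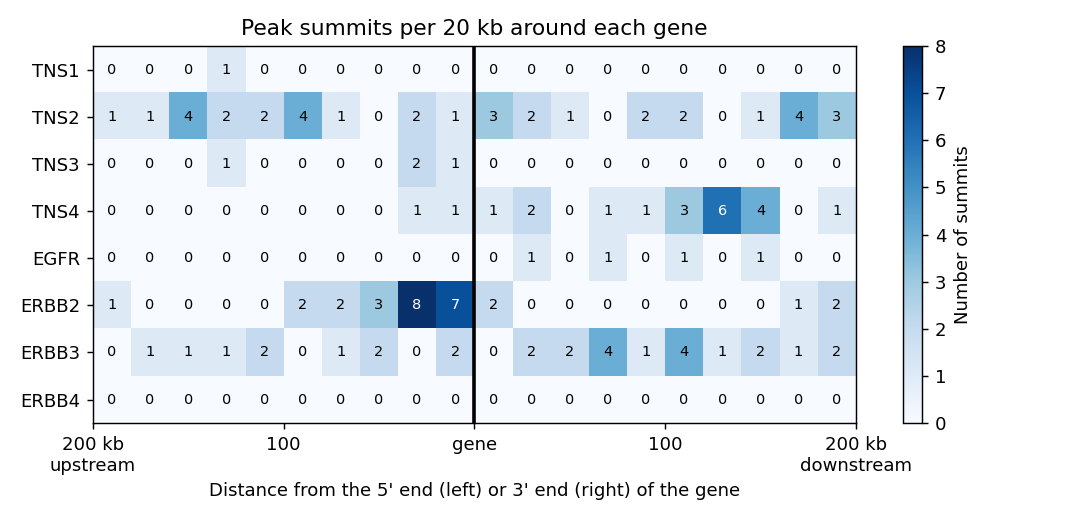
Number of peak summits per 20 kb in the 200 kb upstream (left of the line) and downstream (right) of each gene, peaks inside the gene left out. The highest count, 8, is 20 to 40 kb upstream of ERBB2, and no summit lies around ERBB4.

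Among the 67 other protein-coding genes that reached into these flanks, 43 had a peak by the same rule (64.2%, against 47.2% of all protein-coding genes) and 31 had a promoter peak (46.3% against 31.6%). Peaks were counted over the whole of each such gene, so some, as at CDK12 and WIPF2, lay beyond the flank. The only peak of MIEN1 was also counted for ERBB2, and some neighbouring genes shared a peak with each other, so these genes are not independent. On the 5' side of ERBB2, the overlapping gene PGAP3 had 8 peaks (up to 16 fragments, fold 6.36), 2 of them shared with ERBB2. STARD3, a cholesterol carrier often co-amplified with ERBB2, had 6, PPP1R1B had 4 and the transcriptional kinase gene CDK12 had 3. GRB7, an adaptor that binds ERBB2 and was singled out after its values were seen, lies 7.5 kb downstream and had 2 peaks of up to 14 fragments. On the 3' side of TNS4, the retinoic acid receptor gene RARA had 11 peaks (up to 14 fragments, fold 5.91), WIPF2 had 4, IGFBP4 had 2 and TOP2A had 1. On the 5' side of TNS4 the flank held 2 summits and no protein-coding gene with a peak.

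Around TNS2, the keratin gene KRT8 had 7 peaks (up to 14 fragments, fold 7.41), RARG had 4, and SPRYD3 and MFSD5 had 3 each. Around ERBB3, the chromatin remodeller gene SMARCC2 had 5 and RNF41 had 4. RNF41 codes for a ubiquitin ligase that targets ERBB3, and it lies 98.7 kb downstream of that gene. The citrate synthase gene CS had 3. Near TNS1 the cytoskeletal gene ARPC2 and the chemokine receptor gene CXCR1 had 1 peak each, RUFY4, at 0.978 kb from TNS1, had 0, and TNS3 had PKD1L1 with 1 as its only neighbour. The nearest protein-coding gene to EGFR with a peak was LANCL2, 154 kb downstream, with 1 peak of 9 fragments. The peaks of ARPC2, PKD1L1 and LANCL2 themselves lay more than 200 kb from TNS1, TNS3 and EGFR. ERBB4 had no protein-coding gene within 200 kb.

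Between the paired genes, 44 summits lay in the 0.745 Mb from ERBB2 to TNS4 and 110 in the 3.01 Mb from TNS2 to ERBB3. In the 7.44 Mb from TNS3 to EGFR there were 20, and in the 5.26 Mb from ERBB4 to TNS1 there were 19. These are 59 and 36.5 summits per Mb on chromosomes 17 and 12, and 2.69 and 3.61 on chromosomes 7 and 2.

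The other genes of the pathway were read in the same way. Of 11 ligands of the ERBB receptors, 5 had a peak (45.5%, against 47.2% of protein-coding genes), with 8 peaks in all. NRG2 had 4 (up to 12 fragments, fold 5.13). NRG1, TGFA, AREG and HBEGF had 1 each, with 10, 10, 7 and 7 fragments. The AREG peak was the only one of the ligands within 1 kb of a 5' end, and AREG codes for amphiregulin, a ligand of EGFR. EGF, EREG, BTC, EPGN, NRG3 and NRG4 had none.

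Of 14 adaptors and regulators of the receptors, 9 had a peak (64.3%, against 47.2% of protein-coding genes), with 23 in all. The most were 7 at CBLC (up to 16 fragments, fold 6.49), 4 at CBL and 4 at RNF41, which code for ubiquitin ligases, and 3 at the adaptor gene GRB2. The ubiquitin ligase genes CBLB and STUB1 of the same list had 1 and 0. Adhesion proteins that work with tensins had a peak in 22 of 26 cases (84.6%), and 19 had a promoter peak, against 47.2% and 31.6% of protein-coding genes. Their median was 2.5 peaks per gene, against 0 for protein-coding genes and 1 for those of 100 kb or more, and they had 119 peaks in all. ITGB4, the integrin subunit of hemidesmosomes, had 26 of these in 36.5 kb (up to 22 fragments). The actinin genes ACTN4 and ACTN1 had 14 and 9, and BCAR1, a docking protein of focal adhesions, had 13.

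The GC content of the adhesion genes would give 60.5 peaks, so that 119 is 1.97 times as many, and 1.66 times without ITGB4, against 1.35 times over all protein-coding genes. The counts behind such ratios can include summits near a TSS outside the gene body, which the GC-based number does not cover. For the adaptors and regulators the ratio was 1.83, and 1.43 without CBLC. Of 32 other receptor tyrosine kinases, 24 had a peak (75%, against 47.2% of protein-coding genes), with 126 in all or 1.47 times the GC-based number. EPHB2 had 17, PTK7 had 12 and EPHA2 had 9. With 35 peaks against 33.7, the ratio of the 8 tensin and ERBB genes was 1.04, and that of the ligands was 0.661.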

How the data were processed

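Chromatin of HCT116 cells was sonicated and sequenced as paired-end reads, per the labels' protocols. The submitters' processing notes name Bowtie2, MACS2, deepTools and GRCh38. Their versions and parameters, and the depth of the libraries, are not given in these sources. The authors deposited a table of peaks called on 1 library against 1 input, with the pileup (a signal in fragments, not normalized), a fold enrichment (the ratio of pileup + 1 to local background + 1) and −log10 p and q values. These are the authors' own values and were used only to describe or filter peaks. The background was recovered as (pileup + 1) / fold − 1. The 4 peaks outside chromosomes 1 to 22 and X were left out, so that 33349 remained.

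Summits were placed in GENCODE release 44 with pandas 2.3.3 and pysam 0.24.0, and no peak ended beyond a GRCh38 chromosome. The assignment was tested on simulated summits. GC content was read in tiles of 400 bp, with rates in bins of 2%, and the GC-based number of a gene covers its body only. Exact intervals are at 95% and cover counting error only. No replicate test was possible. Named by rule were all 8 genes, up to 4 genes with the most peaks per list and per flank, all ligands with a peak, and the nearest gene with a peak where a member had none. Outside that rule, the ligands without a peak, MIEN1, TNS2-AS1, GRB7, RUFY4, CBLB and STUB1 were named as well. The members and lists were chosen with earlier results of these data known. The GC-based numbers, CpG ratios and counts of 32-mers were added after the data were seen. Some genes that lie in the flanks are counted without being named. A gene that the rule took and a sequence are not reported here.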

Additional observations from a re-analysis of the deposited data

How the results depend on the processing

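The counts depended mainly on the threshold for peaks. At a −log10 q of at least 5, 2 peaks were left at 2 members (TNS1 and TNS3, with 1 as the highest number at a gene), 0 members had a promoter peak, 8 genes of the pathway lists had a peak instead of 60, and the flanks held 4 summits instead of 123. With a fold of 4 or more, 23 peaks were left at 6 members, TNS2 had none, and 3 members had a promoter peak. With the 5' end as the only TSS, 2 members had a promoter peak. Flanks of 100 and 500 kb held 66 and 251 summits, since they differ in length. Merging peaks less than 1 kb apart left 30 peaks and took TNS2 from 5 to 2. TSS windows of 500 bp and 3 kb and any overlap of the peak gave 35, 36 and 36 peaks. EGFR had 0 peaks under each of these settings. The depth of the libraries is not known here, and the low pileups limit how firmly single peaks can be read. No paired analysis was possible because each group has 1 library and no result comes from a test.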
